A study of Mus musculus with 2 samples.

Results

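The piRNA pathway genes described here are 31 genes whose products make piRNAs in germ cells or act with them. They were chosen by gene symbol: each deposited mm10 gene identifier was matched to a symbol, and all 31 were found among 43346 Ensembl genes in the tables. They were sorted by step into 3 Piwi proteins, 9 with Tudor domains, 13 of biogenesis and 6 of transposon silencing. The step of a gene is an assignment and was not measured here. The rule uses no measured value. Coordinates are on GRCm38 (mm10).

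piRNAs are short RNAs bound by Piwi proteins, the germline branch of the Argonaute family. Long single-stranded precursors are cut at the surface of mitochondria, loaded into a Piwi protein, trimmed, and methylated at the 3′ end. Tudor domain proteins recognise methylated arginines on Piwi proteins and gather them in granules near mitochondria and in the chromatoid body. In the mouse testis, Piwi proteins with piRNAs cut transposon RNA, guide DNA methylation in fetal germ cells, and bind the abundant piRNAs of pachytene spermatocytes.

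The study measured polyadenylated RNA of whole testis from C57BL/6J males at 8 weeks of age, in 2 libraries that form 1 group. The labels name no treatment, altered allele or control group. RNA longer than 200 nucleotides was depleted of ribosomal RNA, and stranded paired reads of 76 nucleotides were sequenced. The labels call the libraries biological replicates 1 and 2 and the animals littermates, but give both the same donor identifier. Whether 2 animals or 1 were sampled is therefore unsettled, and every SD below measures only the spread between these libraries. Expected counts over Ensembl genes summed to 49023238 and 51465728. As a check of the tissue, all markers of spermatogonia (7), meiotic spermatocytes (8), round spermatids (6), elongating spermatids (6), Sertoli cells (7) and Leydig cells (5) reached a TPM of 1 (TPM is a deposited level scaled for transcript length and library depth) in each library. Of 5 epididymis markers, Crisp1 and Spink8 were high in replicate 1 only, and the values stand beside the comparison of the libraries.

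The bases before the start of 25 members could be read from RefSeq (GRCm38.p6), and 6 of them are shown as examples with and without a motif, each from members of high and of low level. The motif is AACNGTC or AACNGCC, spellings of the site recognised by MYB family proteins, which include the regulator of pachytene piRNA genes, Mybl1. The spellings differ at 1 base, so they cannot match the same position, and both strands of the 250 bases before each start were searched. Capitals mark the matches, and a match on the opposite strand reads GACNGTT or GGCNGTT. The windows lie at chr1:166238745-166238994 on the minus strand for Mael, chr5:128735996-128736245 on the plus strand for Piwil1, chr4:45965085-45965334 on the plus strand for Tdrd7, chr3:94412994-94413243 on the plus strand for Tdrkh, chr2:163089602-163089851 on the minus strand for Gtsf1l and chr2:119547628-119547877 on the minus strand for Exd1. Each is written 5′ to 3′ in the direction of its gene.
Mael: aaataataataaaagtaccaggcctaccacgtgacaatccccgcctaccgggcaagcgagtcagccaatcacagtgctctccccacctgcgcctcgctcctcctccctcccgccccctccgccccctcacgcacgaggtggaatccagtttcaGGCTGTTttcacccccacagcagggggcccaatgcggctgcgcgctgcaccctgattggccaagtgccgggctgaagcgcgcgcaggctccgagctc
Piwil1: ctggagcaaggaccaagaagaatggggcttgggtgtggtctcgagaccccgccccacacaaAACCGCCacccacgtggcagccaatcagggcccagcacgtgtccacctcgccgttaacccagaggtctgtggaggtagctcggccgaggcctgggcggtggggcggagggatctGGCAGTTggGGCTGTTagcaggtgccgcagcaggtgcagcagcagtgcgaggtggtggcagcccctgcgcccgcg
Tdrd7: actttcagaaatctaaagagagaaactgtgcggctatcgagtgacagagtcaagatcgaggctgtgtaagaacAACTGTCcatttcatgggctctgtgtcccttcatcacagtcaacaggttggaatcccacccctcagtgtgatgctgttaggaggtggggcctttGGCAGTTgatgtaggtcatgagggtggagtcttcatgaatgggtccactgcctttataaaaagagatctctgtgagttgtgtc
Tdrkh: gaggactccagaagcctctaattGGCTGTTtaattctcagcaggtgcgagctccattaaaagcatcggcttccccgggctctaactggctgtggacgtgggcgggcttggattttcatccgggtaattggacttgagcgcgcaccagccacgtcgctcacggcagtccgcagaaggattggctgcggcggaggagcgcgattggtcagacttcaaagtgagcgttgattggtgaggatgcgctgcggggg
Gtsf1l: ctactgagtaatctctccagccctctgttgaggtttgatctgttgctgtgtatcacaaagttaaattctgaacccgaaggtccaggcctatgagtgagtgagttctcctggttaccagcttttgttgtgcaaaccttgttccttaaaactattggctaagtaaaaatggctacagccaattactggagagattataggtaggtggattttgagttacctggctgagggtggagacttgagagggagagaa
Exd1: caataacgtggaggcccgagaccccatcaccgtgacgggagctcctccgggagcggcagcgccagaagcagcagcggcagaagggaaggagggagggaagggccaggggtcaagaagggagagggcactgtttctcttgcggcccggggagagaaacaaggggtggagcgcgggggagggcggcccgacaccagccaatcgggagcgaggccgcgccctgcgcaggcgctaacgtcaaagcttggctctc
Piwil1 held 3 matches, which began 189, 75 and 66 bases before its RefSeq start. Tdrd7 held 2 matches, at 177 and 83 bases, and Mael and Tdrkh held 1 each, at 97 and 227 bases. Gtsf1l and Exd1 held none in these windows. A match was found in at least 1 window of 12 of the 25 members (48.0%), beside 17.7% of the 27025 genes in the same table. Counted by window, it was 13 of 34 for the members (38.2%) and 15.8% of all 32851. Windows of a gene can overlap, and the 2 Tdrd12 windows hold the same site, which is thus counted in both. The 12 members with a match had a median of 52.4 TPM, from 5.29 to 633. The 13 without had a median TPM of 16.02, from 0.535 to 622, so the ranges overlapped. The other members with a match were Wdr77, Fkbp6, Tdrd1, Gpat2, Mov10l1, Tdrd9, Tdrd5 and Tdrd12. A member counted even where its main start had no match. In Tdrd1 the match lay before the start of Tdrd1-202, a transcript with 0.405% of the gene's TPM. The windows before Tdrd1-203 (69.5%) and Tdrd1-201 (25.7%) held none. In Tdrd7 the matches lay before Tdrd7-202 (37.5%), and the other windows, 1 of which spans the start of the leading Tdrd7-201, held none. Windows follow RefSeq starts, which for Gtsf1l lay upstream of the start of its gene in the annotation used for names. Other windows run past an annotated start. The Piwil1 window ends at 128736245 and Piwil1-201 starts at 128736174. The match at 66 bases therefore lies within that transcript, and the match at 75 bases spans its start. The annotated gene begins farther upstream, at 128702524, so all 3 Piwil1 matches lie within the span of the gene. The matches of Wdr77, Fkbp6, Tdrd5 and Tdrd1 also lie within the span of an annotated transcript.

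In the adult testis 29 of the 31 genes (93.5%) reached a TPM of 1 in each library, the level called detected here. The same was true of 35.8% of all Ensembl genes and 62.1% of the 21474 protein-coding genes. Their median TPM was 45.1 ± 2.67 (SD, n = 2 libraries), beside 3.58 ± 0.0283 for protein-coding genes and 12.9 ± 0.265 for the detected ones among them. Medians of a list are taken over the mean TPMs of its genes, and their SD is that of the library medians. For protein-coding genes the library medians were 3.56 and 3.52. A mean TPM of at least 100 was reached by 5 members (16.1%), Mael, Gtsf1l, Gtsf1, Piwil1 and Tdrd6, beside 7.75% of protein-coding genes. Another 19 lay between 10 and 100, and 5 between 1 and 10. Only Morc1 and Piwil4 were below detection. The highest mean, of Mael, was 1183-fold that of Piwil4. Together the members held 0.297% of the TPM of Ensembl genes in replicate 1 and 0.324% in replicate 2. In whole tissue, fewer cells of a type and less RNA per cell cannot be told apart.

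**Figure D1:**
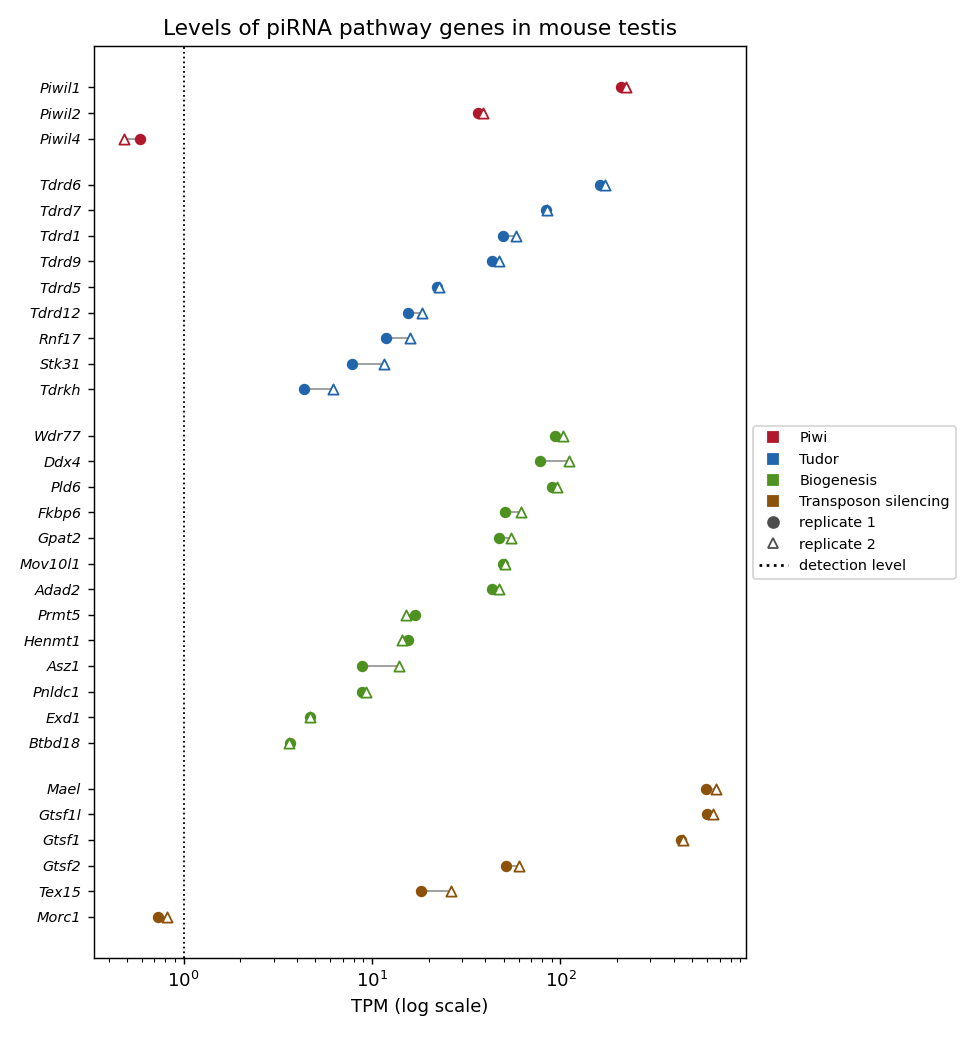
TPM of each member (x axis, log scale) in replicate 1 (filled circles) and replicate 2 (open triangles), with members grouped by step and ordered by mean. The dotted line marks a TPM of 1; Morc1 and Piwil4 lie to its left, and Mael, Gtsf1l and Gtsf1 lie farthest right.

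The 3 Piwi genes were far apart. Piwil1 (MIWI), which binds the piRNAs of pachytene spermatocytes and round spermatids, lay at chr5:128702524-128755474 and measured 209.9 TPM in replicate 1 and 223 TPM in replicate 2. Piwil2 (MILI), a Piwi protein that cuts RNA and is present from fetal germ cells to spermatids, lay at chr14:70372477-70429383 and had a TPM of 36.4 and 38.7. Piwil4 (MIWI2), the nuclear Piwi protein of fetal prospermatogonia, lay at chr9:14696230-14740733 and had a TPM of 0.59 and 0.48. The libraries gave the same order, and none of the ranges overlapped. In TPM, Piwil1 was 5.77-fold above Piwil2 in both replicates. Piwil2 was 61.6-fold above Piwil4 in replicate 1 and 80.5-fold in replicate 2. Piwil4 rested on 50 and 44 expected counts, the fewest of the 31, so its counting error is the largest relative to its level. Piwil1 and Piwil2 each had a single transcript in the deposited tables, both full-length coding.

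Each of the 9 Tudor domain genes passed detection, and their median was 22.4 ± 0.467 TPM (SD, n = 2). Tdrd6, which builds the chromatoid body of round spermatids, had a gene TPM of 163 and 172, the highest of the step. Tdrd7, another chromatoid body protein, had a TPM of 84.0 and 85.1. Tdrd1, the partner of MILI in the granules between mitochondria, had 49.5 and 58.1. At the gene level the ranges of these 3 did not overlap one another or those of the other 6, but the order changed on full-length transcripts.

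Tdrd9, a helicase that works with MIWI2, had a TPM of 43.4 and 47.3. Tdrd5, which binds piRNA precursors, had 22.1 and 22.8, and Tdrd12, a helicase needed for secondary piRNAs, had 15.6 and 18.4. Rnf17, which keeps piRNA amplification out of meiotic cells, had 11.9 and 15.8. Stk31, which joins a Tudor domain to a kinase-like domain, had 7.83 and 11.5. Tdrkh, the mitochondrial protein that holds Piwi proteins for trimming, had 4.36 and 6.21 and was lowest. Replicate 2 was the higher for each of the 9 in TPM, and the difference was widest, relative to the level, for Stk31, Tdrkh and Rnf17.

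Detection was also complete among the 13 biogenesis genes, whose median was 45.1 ± 2.67 TPM (SD, n = 2). Ddx4 (VASA), the germ cell helicase of piRNA granules, measured 77.6 TPM in replicate 1 and 111 TPM in replicate 2, the widest gap in TPM among members of this step. Pld6, the mitochondrial nuclease that cuts precursors, had 89.95 and 95.4. Mov10l1, the helicase that feeds precursors to it, had 49.8 and 50.6. Gpat2, a protein of the mitochondrial outer membrane, had 47.3 and 54.5. Asz1, a scaffold protein on mitochondria, was lower than these in both libraries, with 8.82 and 13.9.

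Of the genes that finish a piRNA, Fkbp6, a co-chaperone of HSP90 in Piwi loading, had a TPM of 51.1 and 61.5. Henmt1, the methyltransferase of piRNA 3′ ends, had 15.4 and 14.4, and Pnldc1, the exonuclease that trims those ends, had 8.81 and 9.30. Tdrkh and Pnldc1, which act together in trimming, were thus both under a TPM of 10. Exd1, a partner of Tdrd12, had 4.70 and 4.67. Btbd18, which promotes transcription of pachytene piRNA loci, had 3.65 and 3.61. Adad2, a protein with an adenosine deaminase domain found in germ cell granules, had 43.2 and 46.96. Exd1 and Btbd18 were the lowest of the step. Their gene TPM differed little between libraries, although Exd1 differed more in expected counts (795 and 979).

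Prmt5, the enzyme that dimethylates arginines of Piwi proteins, had a TPM of 16.9 and 15.2. Its partner Wdr77 (MEP50) had 93.8 and 103. At the gene level Wdr77 was 6.16-fold above Prmt5 on the mean TPM. This order turned when only transcripts annotated as full-length coding were counted (given with the transcripts).

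The 6 genes assigned to transposon silencing held the highest levels of the pathway and the second lowest. Mael, an HMG box protein needed to silence transposons, lay at chr1:166201201-166238747 and had a TPM of 594 and 672. The Gtsf genes encode small zinc finger proteins, of which Gtsf1 helps Piwi proteins cut their targets. Gtsf1l, at chr2:163087034-163087855, had a TPM of 601 and 642, and Gtsf1, at chr15:103402405-103430470, had 436 and 446. Gtsf2, beside Gtsf1 at chr15:103438957-103448469, had 51.7 and 60.4. The ranges of Mael and Gtsf1l overlapped and neither overlapped Gtsf1. Gtsf2 was apart from its paralogs: Gtsf1l was 11.6-fold higher in replicate 1 and 10.6-fold higher in replicate 2, and Gtsf1 was 8.44-fold and 7.38-fold higher.

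Tex15, a nuclear partner of MIWI2 in DNA methylation of transposons, lay at chr8:33516738-33585582 and had a TPM of 18.3 and 26.2. Morc1, an ATPase that silences transposons in fetal germ cells, had 0.73 and 0.82 from 84 and 98 expected counts. Morc1 was thus below detection, as Piwil4 was, while Tex15 and Tdrd9, both described above as working with MIWI2, were detected in both libraries.

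In the order of all 31 mean levels, the ranges of the libraries overlapped for 17 of the 30 pairs of neighbours and were apart for 13. The 5 highest members were apart from each other except Mael and Gtsf1l. From Fkbp6 through Gtsf2, Tdrd1 and Gpat2 to Mov10l1, each neighbour overlapped the next. The same held from Tdrd5 down to Pnldc1, through Tex15, Tdrd12, Prmt5, Henmt1, Rnf17, Asz1 and Stk31. At the low end, Exd1, Btbd18, Morc1 and Piwil4 did not overlap one another.

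Genes that work beside the pathway were read from 4 lists, and all members of each were detected. Of 11 nuclear silencing partners, the median TPM was 14.1 ± 0.0636 (SD, n = 2). Trim28, the corepressor of zinc finger proteins, was highest at 447 ± 3.55, followed by the histone methyltransferase Ehmt2 at 319 ± 30.4 and by Uhrf1, which recruits maintenance DNA methylation, at 36.9 ± 0.537. The de novo DNA methyltransferase Dnmt3b was lowest at 2.30 ± 0.290. Spocd1, a partner of MIWI2, had 6.33 ± 0.255 and so, like Tex15, was detected where Piwil4 was not.

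Of 9 genes of the miRNA and Argonaute pathway, the median of the mean TPMs was 13.0. The medians within the libraries were 12.6 in replicate 1 and 12.7 in replicate 2. Tarbp2, the Dicer partner, had 395 ± 41.7, the exporter Xpo5 had 25.6 ± 0.332 and the microprocessor subunit Dgcr8 had 17.8 ± 1.08. Dicer1 was lowest with 2.37 ± 0.120. The Argonaute genes ran from 3.16 ± 0.148 for Ago1 to 13.2 ± 0.771 for Ago3, so Piwil1 and Piwil2 lay above all 4 Ago genes and Piwil4 below them.

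Of 11 cofactors and granule proteins, the median TPM was 17.7 ± 2.94. The chaperone Hsp90aa1 had 584 ± 78.4, the spermatid helicase Ddx25 had 249.7 ± 15.1 and the kinesin Kif17 had 219 ± 36.3, while Tdrd3, a Tudor protein outside the piRNA pathway, was lowest with 7.18 ± 0.926. Of the transcription factors of piRNA loci, Tcfl5 had 162 ± 12.1. Mybl1 had 6.53 ± 2.74, from 4.59 TPM in replicate 1 and 8.46 TPM in replicate 2.

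**Figure D2:**
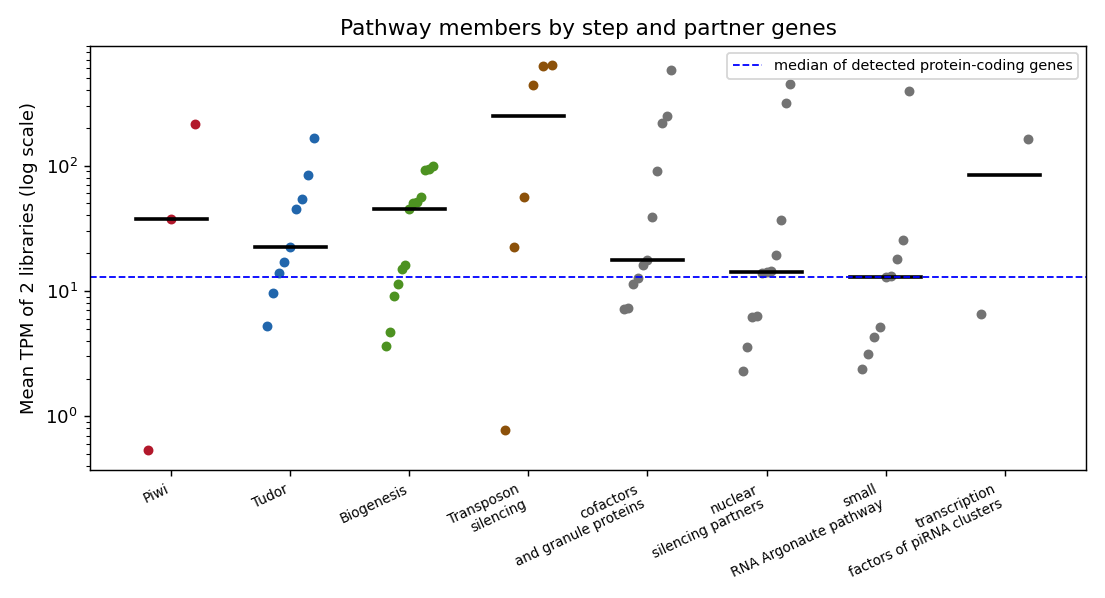
Mean TPM of the 2 libraries (y axis, log scale) for each member by step (coloured points) and for the partner lists (grey points), with black bars at each median. The dashed line is the median of detected protein-coding genes, at a TPM of 12.9; the median of the silencing step, 249, is the highest bar and the median of the Argonaute pathway, 13.0, lies on the line.

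A gene's TPM adds up all of its transcripts, and not all of them are annotated as encoding the whole protein. The 31 genes had 98 transcripts in the deposited tables. Of these genes, 10 had a single transcript, and in all 21 others the transcript with the largest share was the same in both libraries. No value over all genes stands beside that count. A transcript was called full-length coding where its annotated coding sequence was complete and at least 80% as long as the longest complete one of its gene. Among the 29 detected members, 15 had over 95% of their TPM in such transcripts, a count with no value for other genes beside it. The median share was 96.0%, beside 93.8% for detected protein-coding genes. In 8 members (27.6%) the share was under 50%, beside 20.6% of detected protein-coding genes. By expected counts it was under 50% in 4 members (13.8%), beside 10.9%. The leading transcript held under 60% of TPM in 9 detected members (31.03%), beside 28.1%. The members' shares were thus close to those of other genes, and the cases below are given for what they change in single levels.

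Wdr77 had the smallest full-length share, 6.53% ± 0.625 of TPM (SD, n = 2) and 13.0% of expected counts. Its leading transcript in the tables, with 49.9% of TPM, was Gm42890-202, a retained intron transcript of 2566 nucleotides at chr3:105959503-105984600. That transcript shares 1147 bases with the coding transcript Wdr77-201, among them all 1026 bases of its coding sequence. It runs past the end of the gene, and the annotation used for names (GENCODE M21) lists it under a separate gene, Gm42890. Wdr77-203, a shorter coding transcript of 911 nucleotides, held 33.7% ± 2.91. Full-length Wdr77-201 measured 5.71 TPM in replicate 1 and 7.21 TPM in replicate 2. Full-length transcripts of Prmt5 had a TPM of 15.4 ± 1.44, so on this measure Prmt5 was the higher of the pair. The measure leaves out Gm42890-202 by its annotated type, although that transcript holds all coding bases of Wdr77. The order of the pair therefore depends on the annotation.

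Tex15 had 12.2% ± 0.525 of TPM in its full-length transcript, Tex15-201, which is 8405 nucleotides long and had a TPM of 2.17 and 3.30. Tex15-203, of 2626 nucleotides and annotated as a target of nonsense-mediated decay, held 83.9% ± 0.771 of TPM and 65.6% and 65.4% of expected counts. Pld6 had 37.3% ± 1.52 of TPM and 22.3% of counts in its full-length transcript, Pld6-202. The remainder was in Pld6-201, a transcript of 1753 nucleotides annotated without a coding sequence. Pld6-201 nevertheless shares 944 of the 948 bases of Pld6-202, and 659 of its 663 coding bases, so this share also depends on the annotation. Tdrd12 had 14.8% ± 1.32 of TPM and 24.3% of counts in full-length Tdrd12-204, and 61.9% ± 0.813 of TPM in Tdrd12-201, of 1620 nucleotides with a coding sequence of 1221 bases. Tdrd12-203, an incomplete coding model with 3340 coding bases beside 3648 in Tdrd12-204, held 23.3% ± 0.488 of TPM, and these 2 transcripts together held 58.7% and 57.4% of counts. In these 4 genes, Wdr77, Tex15, Pld6 and Tdrd12, the share of complete full-length transcripts was under 50% by TPM and by counts.

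In the other 4 the answer depended on the unit, since TPM divides reads by transcript length and so weights short transcripts more. Tdrd6 had 35.3% ± 1.08 of TPM but 93.4% ± 0.370 of expected counts in its 2 full-length transcripts. Its leading transcript by TPM, Tdrd6-202, is 468 nucleotides long, lies wholly within exons of the coding transcripts and held 6.85% and 6.33% of counts. Tdrd6 thus had a gene TPM of 167 ± 6.49 and a full-length TPM of 59.1 ± 4.09. On full-length transcripts it lay below Tdrd7 (72.5 ± 0.403), and its range (56.2 to 61.96) overlapped that of Tdrd1 (49.5 to 58.1), so the gene-level order of these 3 did not hold. Btbd18 had 45.1% ± 2.46 of TPM and 84.4% of counts, Asz1 43.8% ± 0.416 and 69.7%, and Mov10l1 35.4% ± 2.85 and 69.1%. The short leading transcripts were Btbd18-202 (636 nucleotides) and Asz1-202 (667 nucleotides), both without a coding sequence, and Mov10l1-202 (1260 nucleotides), an incomplete coding model.

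**Figure D3:**
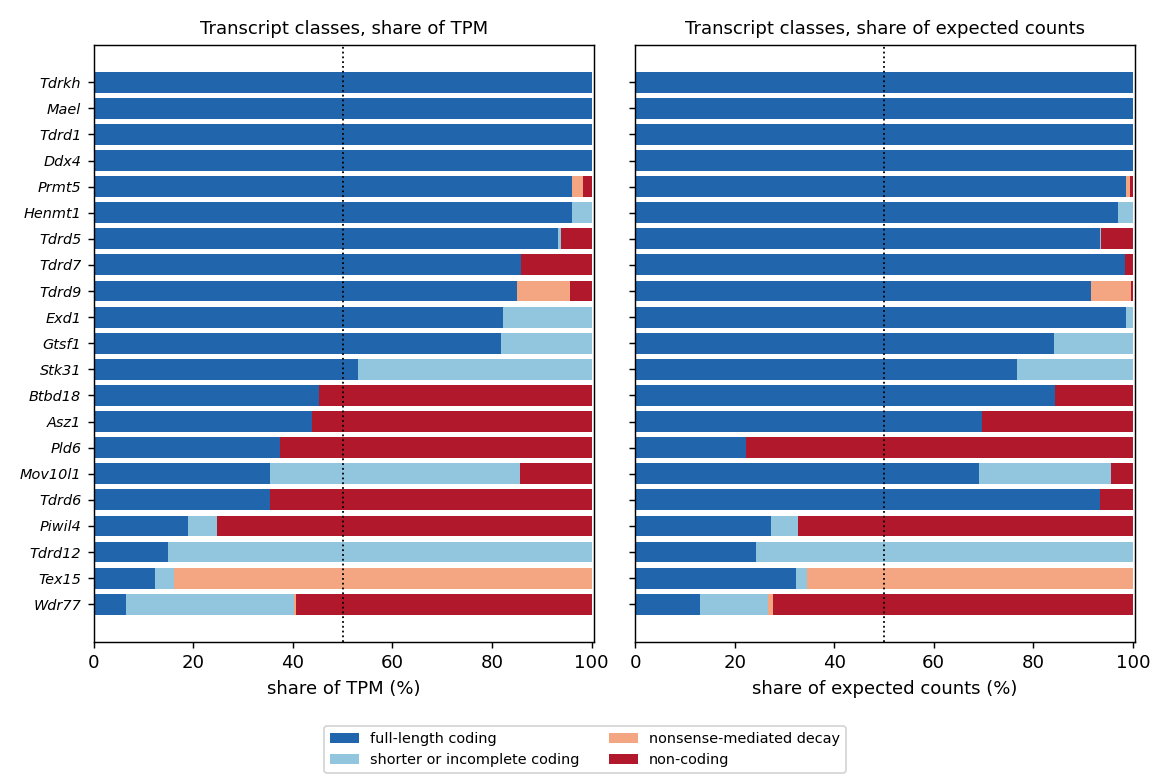
Share of each transcript class (x axis, percent, mean of 2 libraries) in the 21 members with several transcripts, by TPM on the left and by expected counts on the right. The dotted line marks 50%; Tdrd6 has 35.3% of TPM in full-length coding transcripts on the left and 93.4% of counts on the right.

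The other members whose leading transcript held under 60% were full-length coding in their lead. In Gtsf1, Gtsf1-201 held 47.6% ± 2.18 of TPM and several transcripts shared the same coding sequence of 501 bases, so that 81.7% ± 2.29 was full-length. In Tdrd7, Tdrd7-201 held 48.3% ± 0.240 and Tdrd7-202, which begins at the start shown above, held 37.5% ± 1.47. Tdrd5 was divided between Tdrd5-204 at 49.1% ± 3.50 and Tdrd5-201 at 44.2% ± 2.98. Stk31 was divided between the full-length Stk31-201 at 53.1% ± 0.495 and Stk31-203, an incomplete coding model of 1251 nucleotides, at 46.9% ± 0.495. In Exd1 the full-length share was 74.5% in replicate 1 and 89.96% in replicate 2, with Exd1-201 leading at 45.2% ± 4.66. Piwil4, below detection, had 75.3% ± 1.74 of its TPM in Piwil4-202, which has no annotated coding sequence, and a full-length TPM of only 0.09 and 0.11.

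Counting full-length coding transcripts alone, the median TPM of the 31 members was 20.9 in place of 45.1. The 4 highest members, Mael, Gtsf1l, Gtsf1 and Piwil1, stayed in the same order. Wdr77 moved from rank 6 to rank 22, Pld6 from 8 to 15, Tex15 from 19 to 27 and Tdrd12 from 20 to 28. For Wdr77 and Pld6 the move depends on the annotated type of Gm42890-202 and Pld6-201, which hold all or nearly all coding bases. Transcript shares are estimates from reads that several transcripts have in common, and no counting interval can be given for them.

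**Figure D4:**
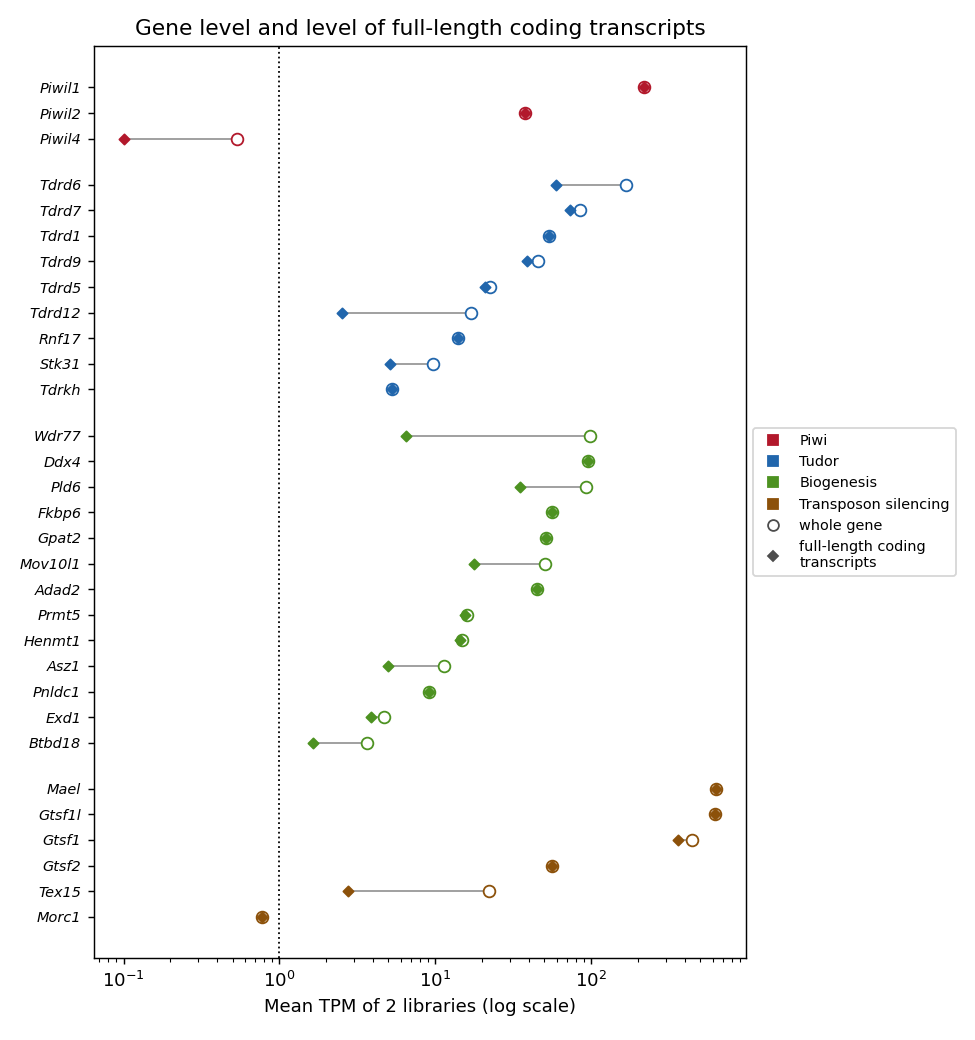
Mean TPM of the 2 libraries (x axis, log scale) for each whole gene (open circles) and for its full-length coding transcripts (diamonds), joined by a grey line, with the dotted line at a TPM of 1. The longest lines are those of Wdr77, Tex15, Tdrd12 and Piwil4.

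Between the libraries, 26 of the 31 members (83.9%) were higher in replicate 2, beside 50.5% of the 19534 genes with at least 10 counts in both. Each ratio compares rounded expected counts of replicate 2 over replicate 1 after scaling with edgeR's TMM factors. The median log2 ratio of the members was 0.12, and that of all genes was 0.00. With 1 library on each side there is no replicate check and no test. The 95% exact binomial intervals, which cover counting error only, lay above 0 for 21 members, below 0 for 2 and held 0 for 8. They are given for members only, so no share over all genes stands beside these counts. No member was past 1.5-fold in either direction, beside 12.3% of all genes (5.34% higher and 7% lower in replicate 2). The median size of the log2 ratio, whatever its sign, was 0.15 for members and 0.20 for all genes.

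The largest ratio was that of Asz1, with 350 and 552 expected counts and a log2 ratio of 0.58 (interval 0.38 to 0.78). Stk31 followed at 0.55 (0.41 to 0.69), from 663 and 1023 counts. Tex15 was at 0.52 (0.45 to 0.60), Ddx4 at 0.50 (0.46 to 0.54), Tdrkh at 0.50 (0.34 to 0.66) and Rnf17 at 0.39 (0.32 to 0.47). These 6 were the members farthest above 0, and the next, Fkbp6, was at 0.25 (0.17 to 0.32). The 2 members whose interval lay below 0 were Prmt5 at -0.20 (-0.30 to -0.10) and Henmt1 at -0.14 (-0.26 to -0.01). Of the 5 members with the highest levels, Mael had a ratio of 0.15, Gtsf1l 0.07, Gtsf1 0.01, Piwil1 0.07 and Tdrd6 0.12. The interval of Gtsf1 held 0 (-0.03 to 0.05), as did that of Piwil4, at -0.26 (-0.88 to 0.35).

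Cell type markers also differed between these libraries. By log2 ratio, all 8 meiotic spermatocyte markers were higher in replicate 2, with a median of 0.35. Their summed TPM was 519.9 in replicate 1 and 559 in replicate 2. Stag3 had a ratio of only 0.0066, and its TPM was lower in replicate 2 (199 and 174). All 7 Sertoli cell markers were also higher in replicate 2, with a median of 0.33 and summed TPMs of 1313 and 1697. Clu held most of the Sertoli sums (1193 and 1524), and Insl3 most of the Leydig sums given next (4187 and 5278). Round spermatid markers were higher in 4 of 6 (median 0.17, summed TPM 3042 and 3331), elongating spermatid markers in 2 of 6 (-0.05, 71282 and 67454), spermatogonial markers in 5 of 7 (0.03, 103 and 112) and Leydig cell markers in 4 of 5 (0.11, 4408 and 5480). In the other direction, none of 4 peritubular markers was higher (-1.48, 259 and 118) and none of 4 macrophage markers (-0.31, 30.0 and 26.3), and endothelial markers were higher in 1 of 3 (-0.26, 40.9 and 28.3). The 5 epididymis markers summed to 649 TPM in replicate 1 and 0.51 TPM in replicate 2, nearly all of it from Crisp1 (454 and 0.2) and Spink8 (194 and 0.25). Rnase9 (0.9 and 0.02), Lcn8 (0.06 and 0) and Lcn9 (0 and 0.04) were under 1 in both. Their part in the members' ratios was not tested.

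**Figure D5:**
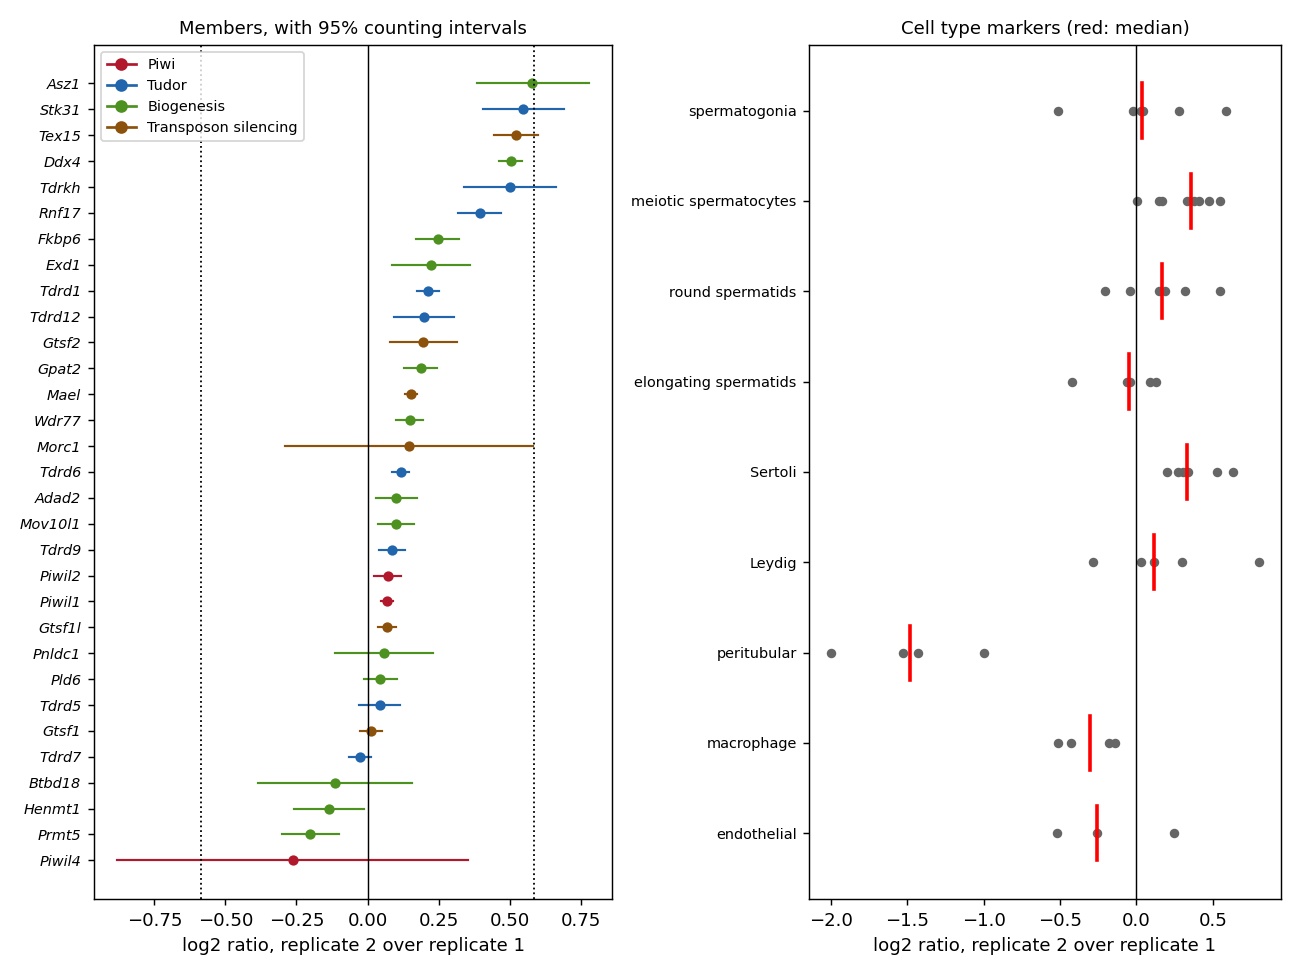
Left, log2 ratio of replicate 2 over replicate 1 (x axis) for each member with its 95% counting interval (bars), dotted lines at 1.5-fold and colours for the steps; right, the same ratio for each cell type marker (points) with the median of its list (red bars). Asz1 is highest at 0.58, Piwil4 has the widest interval, and the peritubular markers lie between -2.00 and -0.998.

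Some members share their locus with another gene. Tdrkh overlaps Oaz3, a spermatid antizyme on the opposite strand, over 2255 bases, and Oaz3 had a TPM of 1921 ± 106 (SD, n = 2) beside 5.29 ± 1.31 for Tdrkh. Tdrd5 overlaps the antisense gene 4930518J20Rik over 176 bases, with a TPM of 43.2 ± 9.22 for that gene. Wdr77 overlaps Atp5f1 over 731 bases (60.1 ± 0.445) and Henmt1 overlaps Gm9857 over 393 bases (26.9 ± 5.12), both on the opposite strand. The libraries are stranded, but the sources used here do not say whether the counting used the strand, so for these 4 members reads of the partner could be included. The transcripts of Gm42890 that overlap Wdr77 are counted within it, as given above. The other overlapping genes that have a row of their own in the tables had a mean TPM of at most 0.3.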

How the data were processed

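Gene and transcript tables of both testis libraries were used. The authors estimated them on mm10 with annotation M4, per the deposited readme, with a program that the sources used here do not name. Per the file headers, the deposited values are expected counts (estimated read counts, in part not whole), TPM and, for every transcript, its percent of the TPM of its gene. Genes were named with GENCODE M21 (GRCm38), which gave a symbol for 42462 of 43346 Ensembl genes. Of the 98 transcripts of the members, 16 differ in length between the deposited tables and M21. Among the members, 26 of 31 had whole expected counts in both libraries (within 0.05).

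Levels were compared in TPM. For ratios, expected counts were rounded and scaled with TMM in edgeR 4.0.16 (R 4.3.3), keeping the 19534 genes with 10 counts or more in each library. Intervals are exact binomial (Clopper-Pearson, 95%, SciPy 1.17.1) and cover counting error only. TMM scaling and a log2 ratio were tested on simulated counts, in code separate from that used for the members' ratios and intervals. DESeq2 1.42.0 size factors, log2(TPM + 1), posterior mean values and other thresholds were alternatives.

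The members and lists were chosen with earlier results of these data known. All members are named. Of each partner list the 3 highest and the lowest are named, and Spocd1, Ago1 and Ago3 were added after their values were seen. Transcripts are described where the leading one held under 60% or was not coding, and Tex15, Pld6, Tdrd6, Tdrd12 and Piwil4 also for their full-length share. The motif, the full-length rule (80%) and the windows shown were chosen after seeing the data. RefSeq windows of 250 bases before the start were matched by symbol for 25 members. Protein sequences and the mm9 junction and contig files were not used here, so the planned comparison with RefSeq protein lengths was not made.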

Additional observations from a re-analysis of the deposited data

How the results depend on the processing

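The count of detected members (29) stayed between 26 and 30 at a TPM threshold of 5 or 0.5 and was 29 with posterior mean TPM. Counting full-length coding transcripts only, an alternative chosen after seeing the data, moved the median TPM from 45.1 to 20.9, because fewer transcripts are summed. The number of members past 1.5-fold was 0 in the main comparison and 1, Asz1, with DESeq2 size factors and with log2(TPM + 1). The log2 ratio of Asz1 was then 0.59 and 0.60 beside 0.58, so it lay at the threshold. The log2 ratio of Exd1 reversed from 0.22 to -0.0076 with log2(TPM + 1). Exd1-202, an incomplete coding model of 537 nucleotides, had 1.2 TPM in replicate 1 and 0.47 in replicate 2, from 16.3 and 6.51 expected counts. Exd1-201 (1.97 and 2.27 TPM) and Exd1-203 (1.53 and 1.94 TPM) were higher in replicate 2. The log2 ratio of Tdrd7, whose interval held 0, went from -0.03 to 0.02. The cause was not tested. Members with under 50% in full-length coding transcripts numbered 8 by TPM and 4 by expected counts. They numbered 8 and 9 with a full-length rule of 70% and 90%. The count higher in replicate 2 was 26 under each of the 5 alternatives.

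Leaving out each library in turn gave 29 to 29 detected members, a median TPM of 43.2 to 46.96, 9 to 10 members with a leading transcript under 60%, and 8 to 8 with under 50% in full-length transcripts. No paired analysis was possible because both libraries belong to 1 group. Depth limits Piwil4 and Morc1, with 44 to 98 expected counts. The other members had at least 225.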
